A study of Mus musculus with 2 samples.

Results

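The genes described here were 31 genes of the lysosome: the soluble hydrolases and their activator prosaposin, the cholesterol carriers, 6 proteins of the lysosomal membrane, the luminal protein progranulin and the transcription factor gene Tfeb. They were taken by gene name from the 54751 gene rows of the deposited count table, with no filter on measured values. All 31 were found. The set itself was chosen with earlier results of these data known. RNA-seq had been run on 2 cultures of MDSCs (myeloid-derived suppressor cells), which are immature cells that restrain T cells. Both were grown from wild-type mouse bone marrow in serum-containing medium and collected on day 6. The control culture received vehicle, and the other received mrWNT2 (recombinant WNT2, a secreted WNT ligand) on day 0 and day 3. The labels give neither the age nor the sex of the mice, nor whether animals were pooled. Each group had 1 library, so no difference has a replicate check and no test between the groups could be run.

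The lysosome is the acidic compartment in which cells break down material taken up by endocytosis, phagocytosis and autophagy. Its hydrolases are made in the endoplasmic reticulum, most are tagged with mannose 6-phosphate in the Golgi, and receptors then carry them to the lysosome, where a proton pump keeps the lumen acidic. TFEB and its relatives bind E-box-like elements, known as CLEAR elements, in the promoters of many lysosomal genes. Phagocytes such as neutrophils, monocytes and macrophages depend on this compartment to digest what they engulf. Loss of single members of this set causes lysosomal storage diseases.

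The 31 genes had nearly the same level in both libraries. All 31 lay within 1.3-fold, a limit chosen after their values were seen, as did 73.3% of the 12856 genes whose mean reached 1 CPM and 83.8% of the 8543 whose mean reached 10 CPM. CPM is the count relative to the library size after scaling by TMM factors, and every one of the 31 had a mean of at least 21.4 CPM. Prosaposin (Psap) and beta-galactosidase (Glb1) were higher in the mrWNT2 library by 1.201-fold and 1.21-fold, and galactosylceramidase (Galc) and Tfeb were lower by 1.23-fold and 1.19-fold. The median log2 ratio of a role lay between -0.08 and 0.13, while the genes of sphingolipid breakdown alone ran from -0.29 to 0.28.

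The promoters of these genes were looked at first, because sites for TFEB are a known feature of the set. RefSeq promoters (GRCm38.p6, 250 bases before and 50 after the start) were matched for 28 of the 31 genes, and Asah1, Galns and Npc1 had no entry. The E-box searched was CACGTG, and the CLEAR core was TCACGTGA. Both read the same on either strand, and every CLEAR core contains an E-box. An E-box lay in the promoters of 7 genes, or 25% of those matched, against 8.09% of 27025 genes with a promoter in the table and 11.9% of the 9308 that were also measured here. The CLEAR core lay in 2 promoters (7.14%), against 1.12% of all genes and 2.25% of measured genes. A match is a description of the letters and not a mapped binding site. The E-boxes, in capitals, are shown with their surroundings for the 7 genes, 5′ to 3′ on each gene's own strand. 
Lamp1 (chr8:13159073-13159160, plus strand): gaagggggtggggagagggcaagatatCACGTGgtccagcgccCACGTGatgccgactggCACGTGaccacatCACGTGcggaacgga
Mcoln1 (chr8:3500421-3500486, plus strand): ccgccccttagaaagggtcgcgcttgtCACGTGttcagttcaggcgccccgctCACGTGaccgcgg
Gla (chrX:134601167-134601255, minus strand): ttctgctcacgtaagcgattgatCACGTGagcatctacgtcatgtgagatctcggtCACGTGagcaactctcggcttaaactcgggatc
Glb1 (chr9:114401003-114401062, plus strand): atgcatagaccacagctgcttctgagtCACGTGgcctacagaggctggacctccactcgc
Gaa (chr11:119267796-119267855, plus strand): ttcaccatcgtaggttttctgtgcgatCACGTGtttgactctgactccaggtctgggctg
Sgsh (chr11:119355511-119355566, minus strand): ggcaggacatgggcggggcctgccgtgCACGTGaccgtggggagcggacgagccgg
Arsa (chr15:89477425-89477467, minus strand): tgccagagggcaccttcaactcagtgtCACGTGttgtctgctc

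The Lamp1 promoter held 4 E-boxes between 61 and 15 bases before the start, the most of any of the 28 genes. Gla held 2, both within a CLEAR core, and Mcoln1 held 2, of which the nearer to the start lay within a CLEAR core. RefSeq's start and that of the deposited gene differed by 0 to 120 bases over these 7 genes. The 7 genes with an E-box had a median log2 ratio of 0.12 (from -0.06 for Arsa to 0.28 for Glb1). The 21 matched genes without one had a median of -0.01 (from -0.29 to 0.26). The ranges overlapped over most of their length, and no test of the difference was made.

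Levels between genes were compared by the authors' FPKM, which is scaled to gene length. Psap, whose product is cut into the saposins that help hydrolases act on sphingolipids, was the highest, at 1397 FPKM in control and 1640 in mrWNT2. It ranked 17th of all gene rows in control and 16th in mrWNT2. Lamp1, the most used marker of the lysosomal membrane, followed at 328 and 349 FPKM. The next were Laptm5, a lysosomal membrane protein of blood cells, at 255 and 224 FPKM, progranulin (Grn) at 208 and 218 FPKM, and the hexosaminidase alpha subunit gene Hexa at 130 and 124 FPKM. At the low end stood Ids, a heparan and dermatan sulphate sulphatase gene, at 4.36 and 4.02 FPKM, and Sgsh at 4.83 and 5.00 FPKM. The order of the first 5 and of the last was the same in both libraries, and members differed from each other far more than each differed between libraries.

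**Figure D1:**
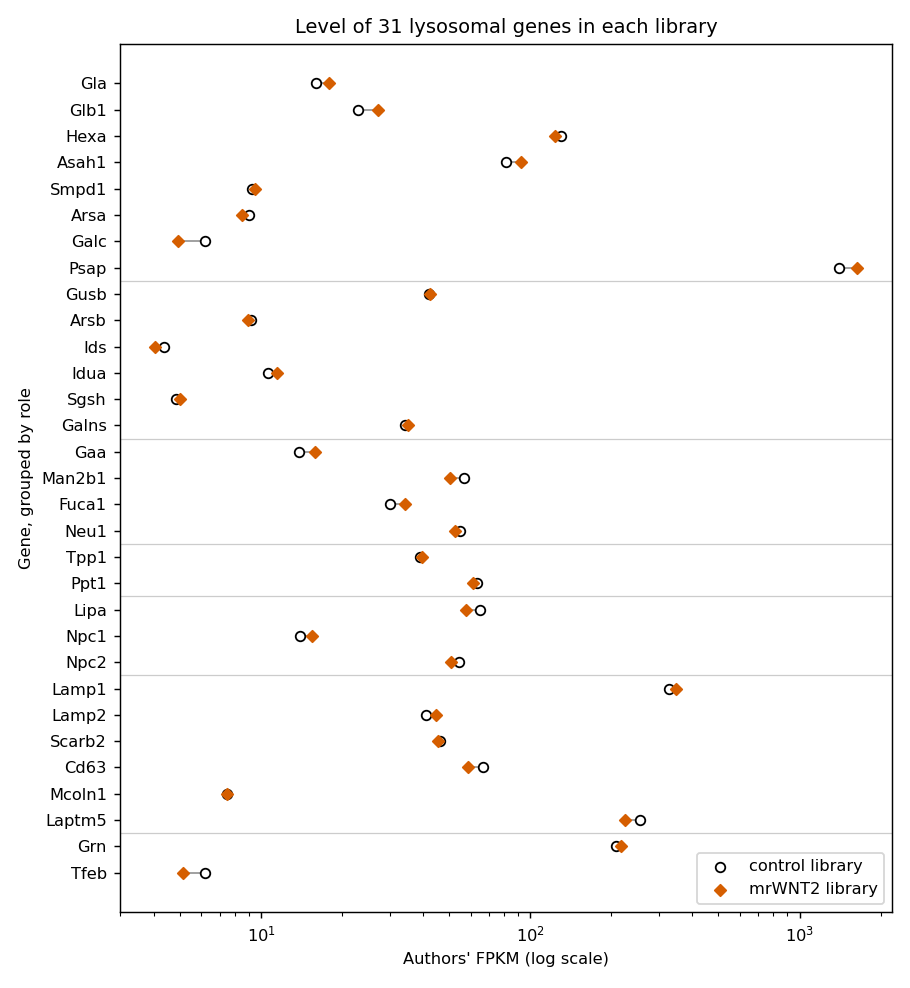
Level of each of the 31 genes in the control library (open circles) and the mrWNT2 library (diamonds), as the authors' FPKM on a log axis, with grey lines separating the roles. Psap stands far to the right at 1397 and 1640 FPKM, and both symbols of a gene lie close together throughout.

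All 31 genes together took 1.04% of control counts (exact binomial interval 1.03 to 1.04) and 1.14% of mrWNT2 counts (1.13 to 1.14). Their summed level was 1.08-fold higher in mrWNT2 (1.07 to 1.09). Psap alone held 36.3% of these counts in control and 40.4% in mrWNT2. Without Psap, a calculation added after the values were seen, the sum of the other 30 genes was 6640 CPM in control and 6727 in mrWNT2, a ratio of 1.01 (1.004 to 1.02). The higher sum therefore rested on 1 gene.

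Read against all genes, few members differed by much. None of the 31 was at least 1.5-fold higher, against 7.62% of genes whose mean reached 1 CPM and 4.12% of those that reached 10 CPM. None was at least 1.5-fold lower, against 7.02% and 2.95%. At 1.2-fold, 2 were higher (Glb1 and Psap), against 21.0% and 15.6%, and 1 was lower (Galc), against 18.4% and 12.7%. With DESeq2 size factors in place of TMM factors neither Glb1 nor Psap reached 1.2-fold, and Tfeb joined Galc among the lower genes. The median log2 ratio of the 31 was 0.06, beside 0.02 over all genes at either minimum. Their standard deviation was 0.15, beside 0.41 over genes with at least 10 CPM. These comparisons were not matched for level. The median of the mean CPM was 182 for the 31 and 45.8 for genes with at least 10 CPM.

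Counts were nonetheless high enough to resolve small ratios. The 95% binomial (Clopper-Pearson) interval lay above a ratio of 1 for 10 of the 31 genes, against 21.0% of genes with at least 1 CPM and 25.0% of those with at least 10 CPM. It lay below 1 for 6, against 18.8% and 22.7%, and included 1 for the other 15. These intervals cover counting error only and compare 2 libraries, not 2 conditions. Deeply counted genes leave 1 more readily than sparse ones, so the counts of intervals say little about size.

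**Figure D2:**
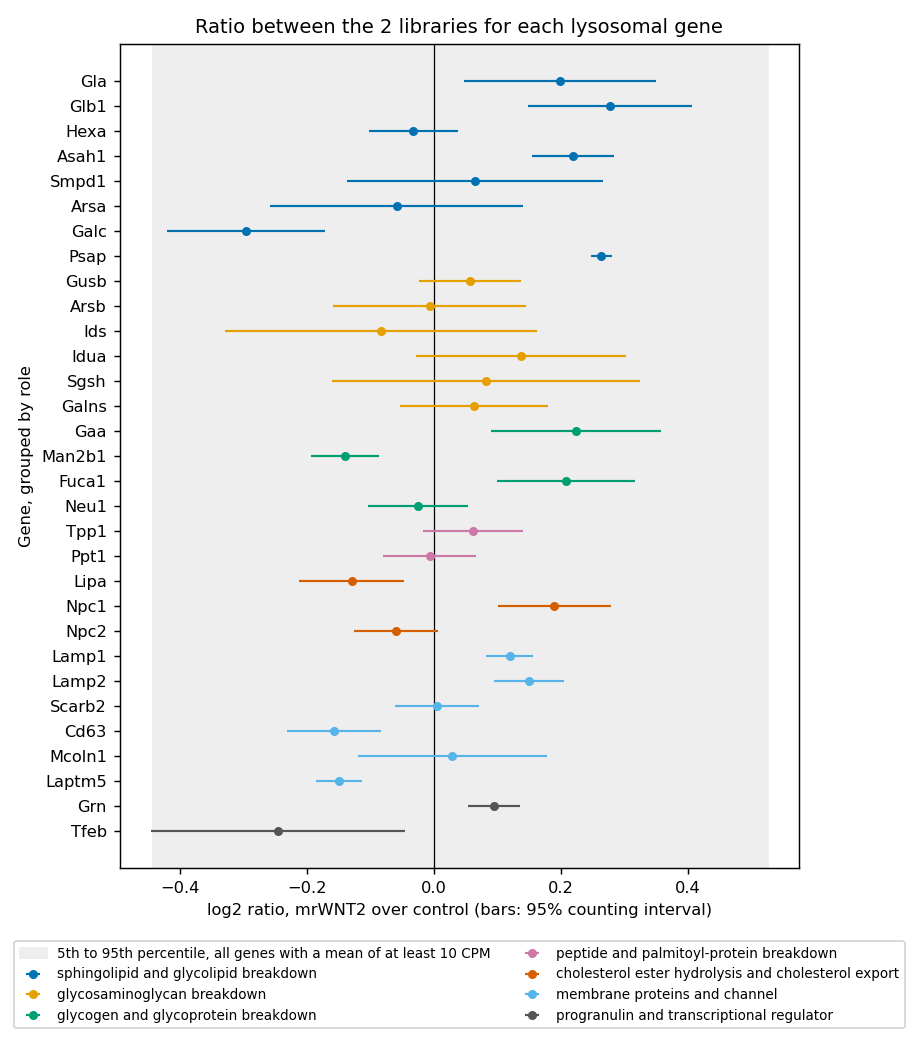
Log2 ratio of mrWNT2 over control for each gene, coloured by role, with bars for the 95% counting interval and a grey band for the 5th to 95th percentile (-0.44 to 0.53) of all genes whose mean reached 10 CPM. All 31 points lie inside the band, between -0.29 and 0.28.

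Genes of sphingolipid and glycolipid breakdown held the members with the highest and the lowest ratio. Psap (ENSMUSG00000004207, chromosome 10, 60277627 to 60302597, GRCm38) had 50683 counts in control and 57884 in mrWNT2, and its level was 1.201-fold higher (interval 1.19 to 1.22). Glb1 (ENSMUSG00000045594, chromosome 9, 114401076 to 114474898), which removes galactose from gangliosides and keratan sulphate, had 912 and 1051 counts and was 1.21-fold higher (1.11 to 1.33). Asah1 (chromosome 8, 41340197 to 41374773), the acid ceramidase that splits ceramide, had 3629 and 4018 counts and was 1.16-fold higher (1.11 to 1.22). Gla, the alpha-galactosidase that clears globotriaosylceramide, had 689 and 752 counts, and its ratio of 1.15 had an interval of 1.03 to 1.27 that included 1 under upper-quartile scaling. In these 4 genes the mrWNT2 library was the higher.

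Galc went the other way. This gene (ENSMUSG00000021003, chromosome 12, 98202294 to 98259459) encodes the enzyme that degrades galactosylceramide and psychosine. Its 1214 control counts stood against 941 in mrWNT2, and its level was 1.23-fold lower (1.13 to 1.34). Its interval did not overlap that of Psap, whose saposin products include the activator of this enzyme. The intervals of the other 3 genes of this role included 1. Hexa, whose product takes part in the breakdown of GM2 ganglioside, stood at 255.7 CPM in control and 250.1 in mrWNT2. Smpd1, the acid sphingomyelinase, stood at 30.6 and 32.0 CPM, and the sulphatide sulphatase gene Arsa at 32.8 and 31.5 CPM.

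Genes of glycosaminoglycan breakdown, the stepwise removal of sulphate and sugar from heparan, dermatan, keratan and chondroitin chains, did not differ beyond counting error. The interval included 1 for 6 of 6 genes, with ratios between 0.944 and 1.10. Of all genes whose mean reached 10 CPM, 25.0% had an interval above 1 and 22.7% had one below 1. The beta-glucuronidase gene Gusb stood at 188 CPM in control and 196 in mrWNT2, and Galns, a sulphatase for keratan sulphate, at 89.9 and 93.9 CPM. Arsb, a sulphatase for dermatan sulphate, stood at 54.8 and 54.6 CPM. Idua, the alpha-iduronidase, had 591 and 618 counts (ratio 1.10, interval 0.981 to 1.23). The sulphatase genes Ids and Sgsh had under 300 counts in each library, and their intervals of 0.797 to 1.12 and 0.895 to 1.25 are the widest of this role.

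Genes of glycogen and glycoprotein breakdown were mixed. Gaa, the acid alpha-glucosidase that degrades glycogen (chromosome 11, 119267887 to 119285454), had 876 counts in control and 973 in mrWNT2 and was 1.17-fold higher (1.07 to 1.28). Fuca1, an alpha-fucosidase, had 1308 and 1437 counts and was 1.16-fold higher (1.07 to 1.25). Man2b1, the alpha-mannosidase of this pathway, had 6023 and 5198 counts and was 1.10-fold lower (1.06 to 1.14). The sialidase gene Neu1 stood at 202 and 199 CPM, with an interval that included 1. Tpp1, a tripeptidyl peptidase, and Ppt1, which strips palmitate from proteins, are mutated in childhood forms of neuronal ceroid lipofuscinosis. Tpp1 stood at 198 and 207 CPM and Ppt1 at 229 and 228 CPM, and both intervals included 1.

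The cholesterol genes did not share a direction. Lipa, the acid lipase that frees cholesterol from its esters, had 2541 counts in control and 2210 in mrWNT2 and was 1.09-fold lower (1.03 to 1.16). Npc1, the membrane protein that exports that cholesterol, had 1971 and 2138 counts and was 1.14-fold higher (1.07 to 1.21). Npc2, which hands cholesterol to NPC1 in the lumen, had 3896 and 3555 counts, and its ratio of 0.960 had an interval (0.917 to 1.004) that included 1 with TMM factors and lay below 1 with DESeq2 size factors. The intervals of Lipa and Npc1 did not overlap.

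Among membrane proteins both LAMP genes were slightly higher in the mrWNT2 library. LAMP1 and LAMP2 are heavily glycosylated and line the inner face of the lysosomal membrane. Lamp1 (ENSMUSG00000031447, chromosome 8, 13159161 to 13175338) had 11610 control counts and 11997 in mrWNT2, a ratio of 1.09 (1.06 to 1.11). Lamp2 (chromosome X, 38401357 to 38456454) had 5182 and 5469 counts, a ratio of 1.11 (1.07 to 1.15). The tetraspanin gene Cd63 and Laptm5 were lower. Cd63 had 3257 and 2778 counts and was 1.11-fold lower (1.06 to 1.17), and Laptm5 (chromosome 4, 130913125 to 130936141) had 12757 and 10940 counts and was 1.11-fold lower (1.08 to 1.14). The processed pseudogene Cd63-ps had 428 and 367 counts, so the split of Cd63 reads is uncertain. Scarb2, which encodes the membrane protein LIMP-2, stood at 288 and 289 CPM. Mcoln1, a calcium-permeable channel of the lysosomal membrane, stood at 55.9 and 57.1 CPM, and both of these intervals included 1.

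Progranulin and Tfeb also lay on opposite sides of 1. Grn (chromosome 11, 102430315 to 102437048), a secreted and lysosomal protein that is abundant in myeloid cells, had 9574 counts in control and 9723 in mrWNT2 and was 1.07-fold higher (1.04 to 1.10). Tfeb (ENSMUSG00000023990, chromosome 17, 47737030 to 47792419) had 465 and 373 counts and was 1.19-fold lower (1.03 to 1.36). Its relatives differed less from 1: Tfe3 stood at 80.8 and 78.4 CPM, Tfec at 92.0 and 92.9 CPM and Mitf at 401 and 424 counts, with intervals that included 1 for all 3. A transcript level says nothing of where TFEB protein was located, which is the known point of its control.

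**Figure D3:**
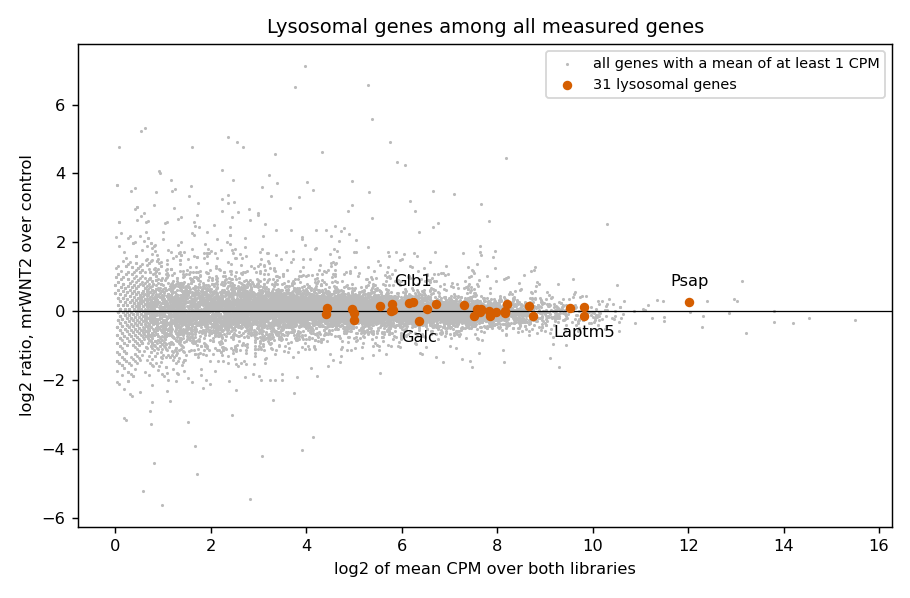
Log2 ratio of mrWNT2 over control against the log2 of the mean CPM for the 12856 genes whose mean reached 1 CPM (grey) and the 31 lysosomal genes (orange). The 31 genes run along the zero line between -0.29 and 0.28 at all levels, while grey points reach -5.63 and 7.12.

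Several members share exon bases with another gene, and the sources do not say if the counting used strand. Ppt1 shares 129 exon bases (3.51% of its own) with Cap1, which lies on the opposite strand and had 15440 and 13025 counts. Npc1 shares 511 exon bases with Rmc1 on the opposite strand (1186 and 1011 counts), and Glb1 shares 165 exon bases with Tmppe on the same strand (274 and 185 counts). For these genes the split of reads is uncertain. Among Psap, Galc, Asah1 and Tfeb, an overlap was found for Galc only, with an antisense model at 0 and 1 counts.

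Enzymes and activators work in complexes with genes outside the 31, and 2 partners, chosen after their values were seen, were set beside them. Gm2a, the activator that presents GM2 ganglioside to the Hexa product, stood at 167 CPM in control and 159 in mrWNT2, and the intervals of both genes included 1. Ctsa, which holds GLB1 and NEU1 in 1 complex, had 3906 and 4517 counts and was 1.22-fold higher (1.16 to 1.27), close to the 1.21-fold of Glb1, while the interval of Neu1 included 1.

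Beyond the 31, 165 of 175 further genes of lysosomal function were measured, in 6 lists. Past 1.5-fold, 7 were higher and 5 were lower in the mrWNT2 library, or 4.24% and 3.03%, against 7.62% and 7.02% of all genes whose mean reached 1 CPM. Of the 157 whose mean reached 10 CPM, 7 were higher and 2 were lower, or 4.46% and 1.27%, against 4.12% and 2.95% of all genes at that minimum. The median log2 ratio of the 165 was -0.04. Within 1.3-fold lay 83.6% of the 165, against 73.3% of all genes whose mean reached 1 CPM and 83.8% at 10 CPM. Most of those past 1.5-fold were in the lists of other hydrolases and other membrane proteins, also the largest lists (36 and 31 measured genes).

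Of 36 other hydrolases and activators measured, 3 were higher and 2 lower by 1.5-fold or more. The shares of all genes whose mean reached 1 CPM were 7.62% and 7.02%, so these counts are near those of any genes. Their median log2 ratio was 0.06. Acp5, the tartrate-resistant acid phosphatase, had 323 counts in control and 850 in mrWNT2 and was 2.77-fold higher (2.43 to 3.16). Prcp, a lysosomal carboxypeptidase, was 1.79-fold higher (1.57 to 2.04), and the acid phosphatase gene Acp2 1.52-fold (1.39 to 1.66). Lgmn, which encodes legumain, a protease that cuts after asparagine, had 3682 and 1503 counts and was 2.33-fold lower (2.19 to 2.48). Plbd1, a phospholipase B-like protein gene, was 1.32-fold lower. The hyaluronidase gene Hyal1 had 46 and 28 counts and an interval that included 1.

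Of 31 other membrane proteins measured, 3 were higher and 1 lower by 1.5-fold or more, with a median of -0.08. The shares of all genes whose mean reached 1 CPM were 7.62% and 7.02%. The higher genes all encode ion or polyamine transporters. Slc11a1, the metal transporter of phagocyte lysosomes known as NRAMP1, had 1408 and 2305 counts and was 1.72-fold higher (1.61 to 1.84). Atp13a2, a polyamine exporter, was 1.71-fold higher (1.59 to 1.84), and Clcn7, a chloride and proton exchanger, 1.65-fold (1.54 to 1.77). The lower one was Mcoln2, a relative of Mcoln1, with 91 and 40 counts (2.16-fold, 1.48 to 3.22). Among genes with at least 10 CPM the lowest were the cystine exporter gene Ctns (1.32-fold lower) and the amino acid exporter gene Pqlc2 (1.26-fold lower).

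The proton pump had 18 of 20 measured subunits within 1.3-fold, against 73.3% of genes with at least 1 CPM and 83.8% at 10 CPM. The standard deviation of the subunits' log2 ratios was 0.35, beside 0.15 for the 31, but the 2 values are not alike. The 0.35 includes the sparsely counted Atp6v1c2, with a mean of 4.14 CPM and a log2 ratio of -1.26, while every one of the 31 had at least 21.4 CPM. Of 20 measured subunits of the vacuolar ATPase, 0 were at least 1.5-fold higher and 1 was lower, Atp6v1c2, at 78 and 31 counts (2.39-fold, 1.56 to 3.75). The shares of all genes whose mean reached 1 CPM were 7.62% and 7.02%. The median was 0.07. Atp6v0d2 and Tcirg1 were 1.28-fold and 1.205-fold higher, and Atp6v0a1 and Atp6v0b were 1.31-fold and 1.13-fold lower.

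Delivery genes had 1 member of 28 past 1.5-fold, and it was the highest. Of all genes whose mean reached 10 CPM, 4.12% were higher and 2.95% lower by as much. Gnptab, which encodes the catalytic subunits of the enzyme that starts the mannose 6-phosphate tag, had 875 counts in control and 1556 in mrWNT2 and was 1.87-fold higher (1.72 to 2.03). Gnptg, its gamma subunit, was 1.34-fold lower (1.09 to 1.66), from 223 and 158 counts. The receptors for the tag, which were looked up after Gnptab was seen, were also higher: M6pr 1.23-fold (1.18 to 1.29) and Igf2r 1.31-fold (1.23 to 1.41). Sort1 and Sorl1, sorting receptor genes of the same list that were also looked up afterwards, were lower. Sort1 was 1.11-fold lower (1.08 to 1.14) and Sorl1 1.202-fold lower (1.17 to 1.23). At 1.2-fold, 5 of the 28 were higher and 3 lower, against 15.6% and 12.7% of all genes whose mean reached 10 CPM. The adaptor subunit genes Ap1s1 and Ap1b1 were 1.34-fold higher and 1.24-fold lower, and the list's median was -0.03.

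Few genes of nutrient sensing and autophagy were past 1.5-fold. Of 21 measured genes of the MiT/TFE family and of nutrient sensing at the lysosome, 0 were at least 1.5-fold higher and 1 was lower. The shares of all genes whose mean reached 10 CPM were 4.12% and 2.95%. The lower gene was the mTOR complex gene Mlst8, at 425 and 244 counts (1.66-fold, 1.41 to 1.95). Flcn, a folliculin gene of the same pathway, was 1.35-fold lower, and Rraga was 1.297-fold higher. Hif1a, on this list though not a MiT/TFE factor or part of the lysosomal sensing machinery, was 1.35-fold higher. All 29 autophagy genes lay within 1.5-fold, with a median of -0.08, beside the same shares of 4.12% and 2.95% past it. At 1.2-fold, 0 of the 29 were higher and 4 lower, against 15.6% and 12.7% of all genes whose mean reached 10 CPM. Sqstm1, the autophagy receptor p62, was 1.197-fold higher (1.15 to 1.25) and Wipi1 stood at 62.4 and 67.5 CPM, while Tecpr1 and Ulk2 were 1.35-fold and 1.33-fold lower.

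**Figure D4:**
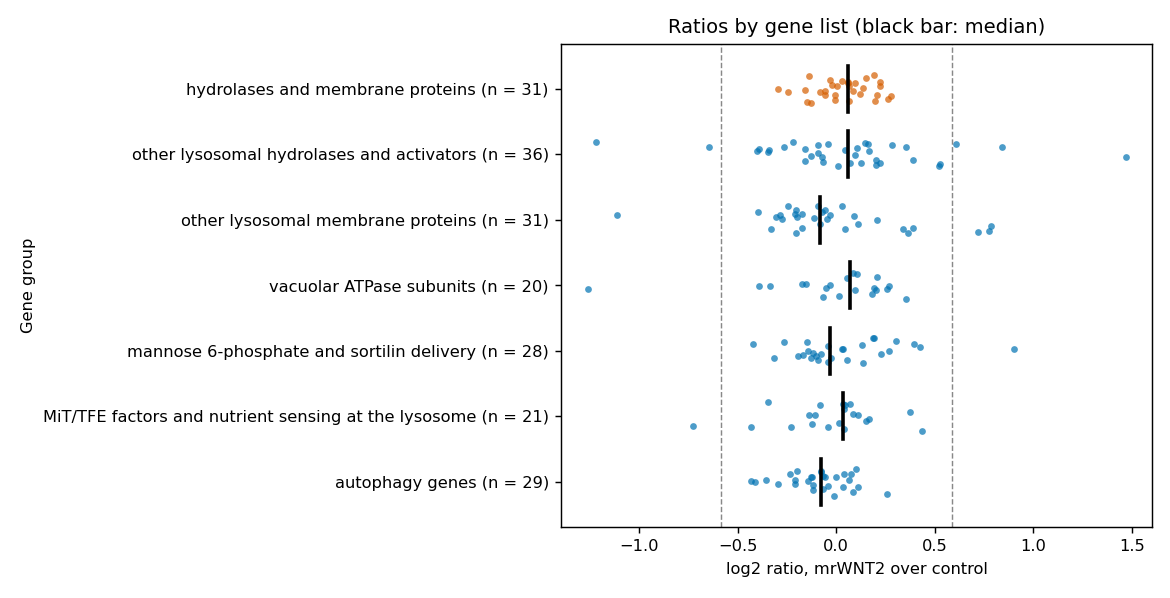
Log2 ratio of mrWNT2 over control for the 31 genes (orange) and for the measured genes of 6 further lists (blue), with a black bar at each median and dashed lines at 1.5-fold. The 31 genes and the autophagy genes lie wholly between the dashed lines, and the other lists have 1 to 5 genes outside them.

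The libraries held 13474453 counts for control and 12621110 for mrWNT2. As a check of the label, all 13 listed myeloid markers were measured. They summed to 47242 CPM in control and 39865 in mrWNT2, most of it from S100a8 and S100a9. Of the 13, 4 were lower in mrWNT2 by 1.2-fold or more and 0 were higher by as much. The shares of all genes whose mean reached 1 CPM were 18.4% and 21.0%. The granulocytic marker Ly6g had 2315 and 1098 counts and was 2.005-fold lower (1.87 to 2.16), S100a8 was 1.25-fold lower, and Itgam stood at 495 and 477 CPM. Macrophage markers summed to 2116 and 1909 CPM, but of the 12 measured 8 were lower and 3 higher in mrWNT2 by 1.5-fold or more. Of all genes whose mean reached 1 CPM, 7.02% were lower and 7.62% higher by as much. Timd4 had 0 counts in both libraries. Mrc1 was 3.07-fold lower and Marco 8.67-fold higher. B cell markers summed to 4.64 and 4.25 CPM (Pax5 at 0), T and NK cell markers to 2.54 and 1.34 CPM (Ncr1 at 0), and osteoclast markers to 188 and 184 CPM (Calcr at 0). Most of the osteoclast sum came from Nfatc1 (83.0 and 74.3 CPM) and Itgb3 (101 and 105 CPM). Ctsk had 28 and 16 counts and Dcstamp 26 and 40. Dendritic cell markers summed to 39.4 and 37.3 CPM (Siglech at 0), eosinophil markers to 985 and 1160 CPM and basophil and mast cell markers to 276 and 243 CPM. Members of the last 2 lists went in different directions: the eosinophil granule genes Epx and Prg2 were 1.32-fold and 1.13-fold higher and Ccr3 had 39 and 22 counts, while Kit was 2.15-fold lower and Mcpt8 stood at 38.7 and 40.3 CPM. Erythroid and megakaryocyte markers summed to 484 and 218 CPM (Hbb-bs at 0), and stromal and endothelial markers to 66.9 and 58.4 CPM. The part of these marker differences in the ratios of the lysosomal genes was not tested. In bulk RNA a different number of cells of 1 type and a different amount of RNA per cell cannot be told apart.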

How the data were processed

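RNA-seq libraries of 1 control and 1 mrWNT2-treated MDSC culture were compared. Per the labels' protocols, TRIzol was used to extract total RNA and an NEBNext Ultra RNA kit to make libraries. Per the submitters' processing notes, which give no roles, the tools were featureCounts 1.5.0-p3, HISAT2 2.0.5, DESeq2 1.20.0, CASAVA 1.8 and fastp, and the build was GRCm38 (mm10). The authors deposited raw counts per gene and FPKM (scaled to gene length and library size). Both tables agree: over 10078 genes with more than 50 counts in each library, the log2 ratio from the deposited FPKM and from the counts scaled by DESeq2 size factors differed by at most 1.2e-08.

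CPM values were made from the counts with edgeR 4.0.16 (R 4.3.3), whose TMM factors were 0.992 in control and 1.01 in mrWNT2. With 1 library per group no count model was fitted and no p-value exists. Each ratio was computed without a pseudocount and given an exact 95% Clopper-Pearson interval from its 2 counts (scipy 1.17.1). A count of 0 was replaced by 3 counts. No molecular identifiers are named in the labels, so intervals cover counting error only. A gene was called measured where its mean reached 1 CPM (12856 genes). The 219 gene models with no reference identifier were kept in the totals. Ratios and intervals were tried on simulated counts with known ratios. Those counts held counting error only, so they say nothing of variation between cultures or libraries. All 31 genes are named. From each further list the 2 highest and 2 lowest ratios among genes whose mean reached 10 CPM are named, and others are marked where chosen after their values were seen or are the ones counted past 1.5-fold. The 31 genes and all lists were chosen with earlier results of these data known. Gene positions are 1-based and come from the deposited table, and 30 of the 31 genes had the same start and end in GENCODE M21, from which exon overlaps were taken. Promoter sequences are RefSeq's (GRCm38.p6). Alternatives were DESeq2 size factors (DESeq2 1.42.0), total counts, upper-quartile factors, the authors' FPKM values, a prior count of 2 and other expression minimums.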

Additional observations from a re-analysis of the deposited data

How the results depend on the processing

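No paired analysis was possible because each group had 1 library, and no library could be left out. The median log2 ratio of the 31 genes stayed between 0.0056 (upper-quartile factors) and 0.079 (total counts), and no gene was past 1.5-fold in either direction under any alternative run. The counts at 1.2-fold depended on the scaling: with DESeq2 size factors, upper-quartile factors and the authors' FPKM values, 0 genes were at least 1.2-fold higher and 2 were lower (Galc and Tfeb). The log2 ratio of the summed level, 0.11 with TMM factors, was 0.079 with DESeq2 size factors, 0.13 with total counts and 0.019 without Psap, a setting added after the data were seen. The sign of the ratio was kept in 27 genes and changed in 4 (Arsb, Ppt1, Scarb2 and Mcoln1), all with intervals that included 1. The side of the interval was kept in 27 genes across the 3 other scalings and changed in Gla, Hexa, Tpp1 and Npc2. Those scalings moved the median of all genes by -0.052 to 0.022. Ratios of Ids, Sgsh, Tfeb, Smpd1 and Arsa rest on under 500 counts a library and are the least precise.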
